A study of Mus musculus with 38 samples.

Results

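A group of 9 myelin genes was followed through the RNA-seq libraries of the series. They are Mbp, Mog, Mag, Mobp, Cnp, Mal, Ugt8a, Opalin, and Cldn11, chosen by their symbols, and they are 9 of the 54165 genes in the count table. All 9 were found there, and all 9 had at least 152 reads in every library and were kept when genes of low counts were removed, so none was lost. In build GRCm38 they lie apart on 8 chromosomes, Mbp on 18, Mog on 17, Mag on 7, Mobp on 9, Cnp on 11, Mal on 2, Opalin on 19, and Ugt8a and Cldn11 on 3, with 1704 (Mog) to 8469 (Mbp) exonic bases. RNA was taken from the prefrontal cortex (PFC) and the hypothalamus (Hypo) of adult FVB/NJ mice, either homozygous for a transgene that adds 2 copies of the ubiquitin ligase gene Ube3a (Ube3a2X, spelled Ube3a2x in the labels) or their wild-type (WT) littermates, of both sexes. The PFC gave 20 libraries, 5 for each sex and genotype. The Hypo gave 18, which in each sex were 5 of Ube3a2X and 4 of WT mice. By the mouse numbers in the labels, the 38 libraries came from 25 mice, 13 of which gave both tissues. The PFC was taken as micropunches and the Hypo was excised, and the tissues also differed in extraction kit and RNA input, so tissue, dissection, and preparation cannot be told apart. Mice are named here by the numbers in the labels.

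Myelin is the layered membrane that oligodendrocytes wrap around axons, where it speeds conduction and supports the axon. Its genes are switched on together when a precursor cell matures, under factors such as Sox10 and Myrf, and their transcripts are among the most abundant of the mature oligodendrocyte. In tissue RNA their level follows both the number of oligodendrocytes and what each cell makes. In bulk samples fewer cells of a type and less RNA per cell cannot be told apart.

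Ube3a separated the genotypes in every library. It reached 190 to 268 CPM (counts scaled to library size) in the PFC of WT mice and 663 to 2239 CPM in that of Ube3a2X mice, and in the Hypo 108 to 350 CPM and 726 to 1684 CPM. Counted reads per library ranged from 36.9 to 69.1 M for the PFC and from 39.0 to 380.8 M for the Hypo. RIN, a score of RNA integrity, lay between 6.7 and 8.9 for PFC libraries. It lay between 8.8 and 9.3 for Hypo libraries, except Hypo WT male 423 at 6.8. Within the PFC, coverage along transcripts was least even in Ube3a2X female 468 (median coefficient of variation 0.72) and Ube3a2X male 258 (0.63), against 0.56 in the next library. The share of bases in untranslated regions was lowest in PFC WT female 397 (40.3%) and Ube3a2X male 258 (40.8%), against 43.4% in the next PFC library. The tissue labels went with their markers, as 7 genes of excitatory cortical neurons summed to 5530 to 10788 CPM in the PFC and 281 to 585 CPM in the Hypo, and 10 genes of the hypothalamus to 483 to 2164 CPM in the Hypo and 1.12 to 3.43 CPM in the PFC. The Hypo library of WT female 471 stood apart. Bases in untranslated regions made up 53.7% of its aligned bases, against 35.9% to 44.0% in the other Hypo libraries, and the summed level of 7 pituitary genes was 4804 CPM there and 919 CPM in the next library. In the PFC, Ube3a2X males 238 and 402 held the extremes of most of the 9 genes, and the main results are given with and without these libraries.

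The promoters of the 9 genes, which their choice did not use, were read for motifs of the factors named above. RefSeq start sites of build GRCm38.p6 were given for 8 of the 9 genes, as windows of 250 bases before and 50 bases after the start, with 3 windows for Mag, of which the first and second overlap and hold the same matches. Mbp was not among them. The letters ACAAAG, a core that Sox factors bind, were searched on both strands and occurred in windows of 4 genes, Mag, Mobp, Cnp, and Opalin, which is 5 of their 10 windows, and in 18.7% of all 32851 windows. ACAATG, another core of Sox type, was searched likewise, was in no window of these genes, and was in 12.6% of all windows. Either core was thus in 5 of these 10 windows and in 28.6% of all windows. A share per gene was not taken over all genes. The letters CTGGNAC, the core bound by Myrf, were likewise in windows of 4 genes, Mog, Mag, Cnp, and Opalin, again 5 of 10 windows, and in 19.3% of all windows. The 2 motifs do not overlap in the stretches printed here. Each is a stretch of 30 bases on the strand of the gene, in build GRCm38.p6, with the match in capitals (CTTTGT and GTACCAG are matches on the other strand):
Mag, Sox-type match, chr7:30914972-30915001, minus strand: tgacaagggcccCTTTGTgcccccctcccc
Mobp, Sox-type match, chr9:120149532-120149561, plus strand: ttttgtttcactCTTTGTttcaactttctt
Cnp, Sox-type match, chr11:100574760-100574789, plus strand: aacttttaaggaACAAAGaggtggcgtggc
Opalin, Sox-type match, chr19:41077235-41077264, minus strand: cagaaaataaagACAAAGagaaggaagact
Mog, Myrf-type match, chr17:37023463-37023492, minus strand: agaaatgcccaGTACCAGgcagccactgct
Mag, Myrf-type match, chr7:30914913-30914942, minus strand: gcaggcggcccCTGGCACccagggggcaga
Cnp, Myrf-type match, chr11:100574847-100574876, plus strand: accgctgcttcCTGGCACtcaggtttccat
The window of Mobp held 6 matches to ACAAAG, all on the other strand, and the one shown began 198 bases before the start. A match describes the letters only, and the windows of Mal, Ugt8a, and Cldn11 held none of these motifs.

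Per length of exon, the order of the 9 genes was the same in both tissues. On the scale of RPKM, which divides CPM by the exon length in kb, Mbp, the basic protein that holds the cytoplasmic faces of the membrane together, was highest, with a median of 89.2 in the PFC and 191 in the Hypo. It was followed by Cnp, a phosphodiesterase of the non-compact myelin, with median levels of 30.03 and 75.8 RPKM. Next came Mobp, a small protein of compact myelin, with 26.8 and 70.5 RPKM, and Mal, a proteolipid of membrane traffic, with 25.7 and 55.6 RPKM. Cldn11, the tight junction protein of the myelin sheath, had a median of 16.6 RPKM in the PFC and 42.0 RPKM in the Hypo. Mag, the adhesion protein of the layer next to the axon, had 12.3 and 34.0 RPKM, and Mog, on the outermost layer, had 10.01 and 26.8 RPKM. Ugt8a, the enzyme that makes galactosylceramide, had 6.56 and 15.2 RPKM, and Opalin, a membrane glycoprotein of oligodendrocytes, was lowest at 1.99 and 4.74 RPKM. In the Hypo the ranges over libraries did not overlap between Mbp and Cnp, between Mog and Ugt8a, or between Ugt8a and Opalin, while all other neighbours in the order overlapped. In the PFC the ranges of all neighbours overlapped. Together the 9 genes took 0.0675% to 0.230% of the counted reads in the PFC (median 0.114%) and 0.236% to 0.372% in the Hypo (median 0.320%), with no overlap between the tissues. Of these reads, Mbp alone made up 51.5% to 66.0% in PFC libraries and 52.7% to 59.0% in Hypo libraries.

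All 9 genes were higher in the Hypo than in the PFC. The differences ran from 0.94 (log2) for Mal to 1.28 for Mag, with a median of 1.12, and every one was called at an adjusted p under 0.05 by the quasi-likelihood test of edgeR. Across all 14219 genes tested, 68.4% were called in either direction, 35.6% were called higher, and the median difference was 0.02, so a call as such was common. At the stricter rule of a call and at least a 2-fold rise, 7 of the 9 genes passed against 10.7% of all genes, and Mbp and Mal did not.

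Mbp ranged from 447 to 1564 CPM over the 20 PFC libraries, with a median of 755 CPM, and from 1182 to 1998 CPM over the 18 Hypo libraries, with a median of 1614 CPM. The tissues overlapped through 1 PFC library, that of Ube3a2X male 238, which reached the level of the Hypo while the next PFC library had 1170 CPM. Mbp was higher in the Hypo by 0.95 ± 0.19 (log2, SE; edgeR adjusted p = 3.94e-05). Mobp ranged from 69.2 to 352 CPM in the PFC (median 183) and from 350.3 to 578 CPM in the Hypo (median 483). Its tissues met only at the PFC library of mouse 238, and its difference was 1.16 ± 0.21 (log2, SE; edgeR adjusted p = 7.47e-06). Mobp shares 79 exonic bases with Gm38642 on the same strand, so strand cannot separate their reads there, and the median library had 1294 reads of Gm38642 and 17791 of Mobp.

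Cnp had 74.6 to 201 CPM in the PFC (median 109) and 223 to 330 CPM in the Hypo (median 276). No PFC library reached the lowest Hypo library, and Cnp had the smallest adjusted p of the 9 genes, with a difference of 1.21 ± 0.14 (log2, SE; edgeR adjusted p = 2.60e-09). Cnp shares 154 exonic bases with Dnajc7 on the opposite strand, and the libraries were stranded. Mal did not overlap either, with 32.3 to 109 CPM in the PFC (median 71.4) and 120 to 197 CPM in the Hypo (median 155). It had the smallest difference of the 9 genes, 0.94 ± 0.15 (log2, SE; edgeR adjusted p = 2.11e-06).

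Mag and Mog, of the inner and outer layers, gave the largest differences in this fit over all libraries, and Cnp or Mobp did in the fits with a fixed block per mouse. Mag ranged from 29.4 to 115 CPM in the PFC (median 50.2) and from 91.3 to 170 CPM in the Hypo (median 138), and it was 2.43-fold higher in the Hypo (95% interval 1.81 to 3.26). Mog ranged from 9.27 to 36.7 CPM in the PFC (median 17.1) and from 34.3 to 70.0 CPM in the Hypo (median 45.6), and it was 2.40-fold higher (1.84 to 3.13). In both genes the PFC library of mouse 238 was the only one within the range of the Hypo.

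Cldn11 had 15.8 to 65.1 CPM in the PFC (median 31.1) and 46.6 to 111 CPM in the Hypo (median 78.5), and 3 PFC libraries lay at or above the lowest Hypo library, which was that of mouse 238. Its difference was 1.12 ± 0.19 (log2, SE; edgeR adjusted p = 5.32e-06). Ugt8a had 15.1 to 46.8 CPM in the PFC (median 29.8) and 45.0 to 82.4 CPM in the Hypo (median 68.9), and Opalin had 2.81 to 13.2 CPM (median 5.86) and 10.2 to 27.5 CPM (median 14.0). Each met the other tissue in 1 PFC library, and their differences were 1.08 and 1.05 (log2; edgeR adjusted p of 5.33e-08 and 3.78e-05).

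**Figure D1:**
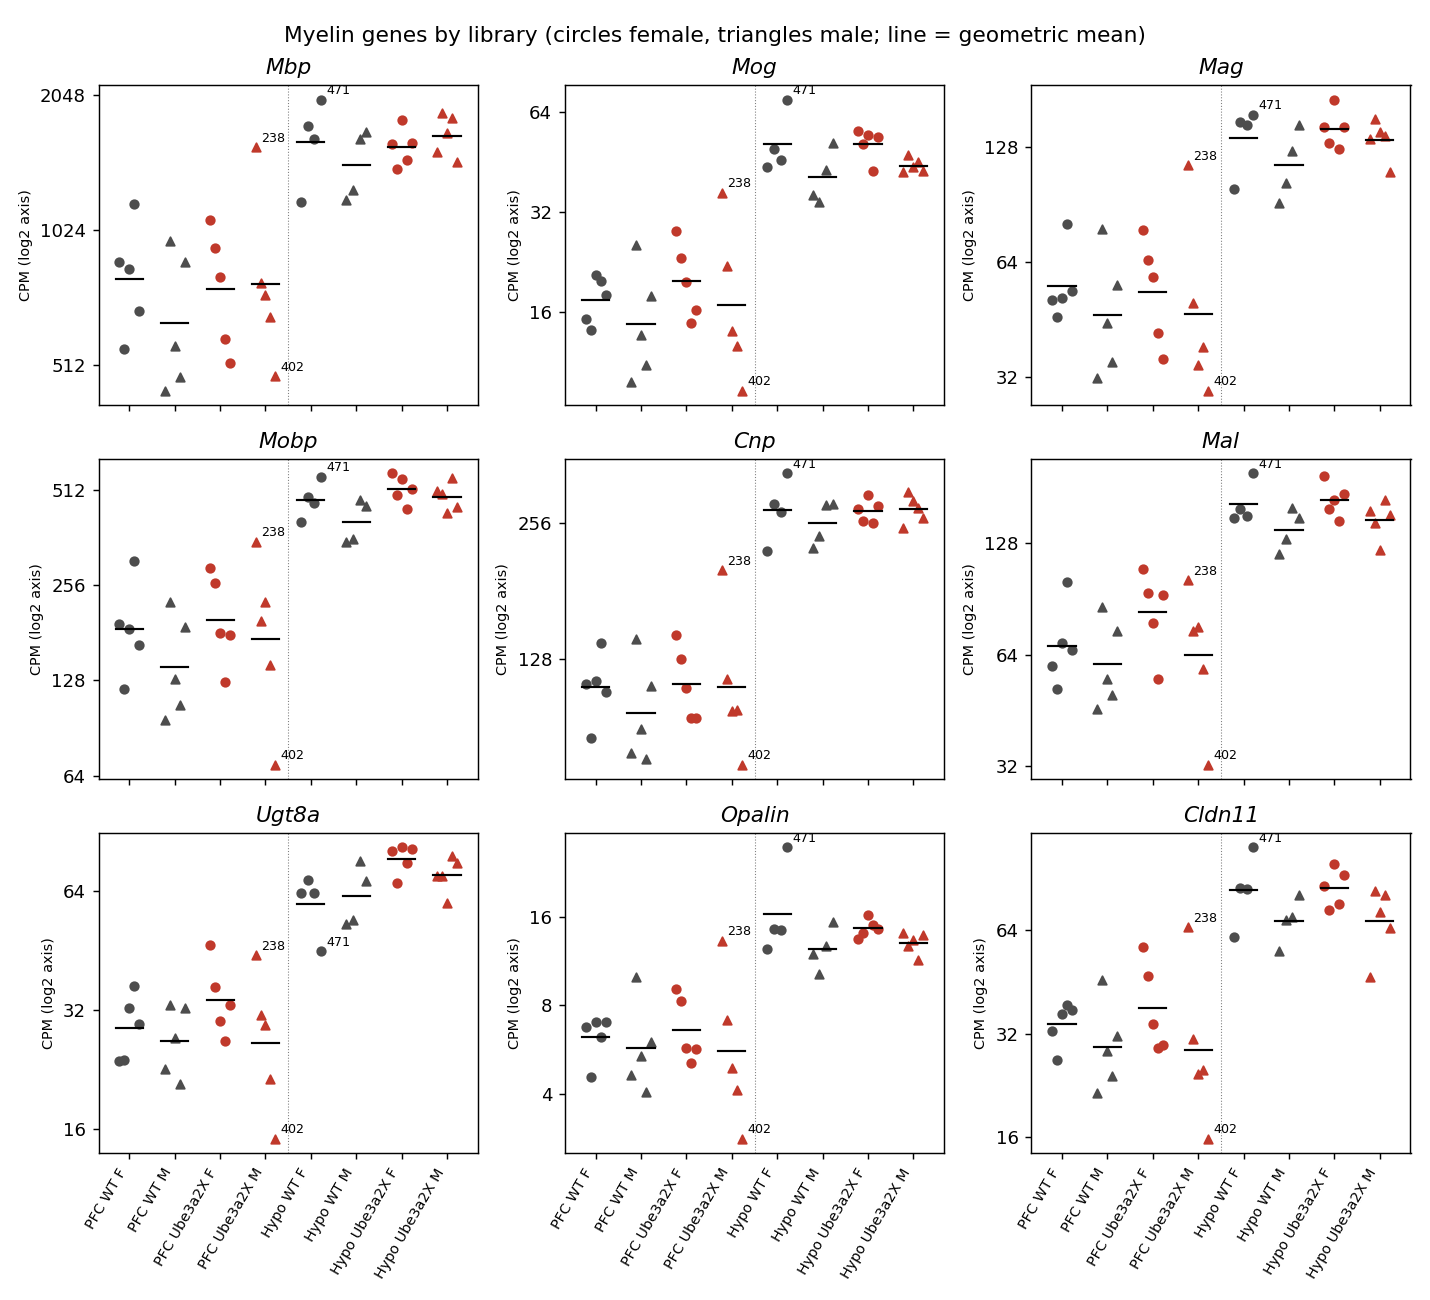
CPM of the 9 myelin genes in every library on a log2 axis, by tissue, genotype, and sex, with circles for females, triangles for males, grey for WT, red for Ube3a2X, and a line at the geometric mean of each group. PFC libraries lie left of the dotted line and Hypo libraries right of it, and mice 238 and 402 (PFC) and 471 (Hypo) are marked.

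Within mice the direction was nearly uniform. In the 13 mice with both tissues, 7 of the genes were higher in the Hypo library in 13 of 13 mice, and Mbp and Cldn11 in 12 of 13. Both exceptions were mouse 238, in which Hypo minus PFC was -0.04 for Mbp and -0.48 for Cldn11 (log2). The median difference within mice ran from 0.97 for Mal to 1.52 for Mag (log2). The smallest difference belonged to mouse 238 for 7 of the 9 genes, Mal and Opalin being those whose smallest value came from mouse 251.

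The number of calls depended on how RIN and the mouse entered the fit. With the mouse as a fixed block and RIN, over 13 mice, all 9 differences were positive at 0.69 to 1.14 (log2), and 4 genes, Mobp, Cnp, Mal, and Ugt8a, remained called, where 41.7% of all 14508 genes were. RIN was higher in the Hypo library in 13 of these 13 mice. With the same block and no RIN all 9 were called, at 1.04 to 1.43, where 71.4% of all genes were, and with the mouse as a random block in limma-voom, with RIN, all 9 were called, at 0.97 to 1.35, where 68% of all genes were. Without Hypo WT male 423, the only Hypo library with a RIN under 8.8, all 9 stayed called and the median fell to 0.88. Without the PFC library of mouse 238 the median was 1.23, without that of mouse 402 it was 1.09, and without the Hypo library of mouse 471 it was 1.10.

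**Figure D2:**
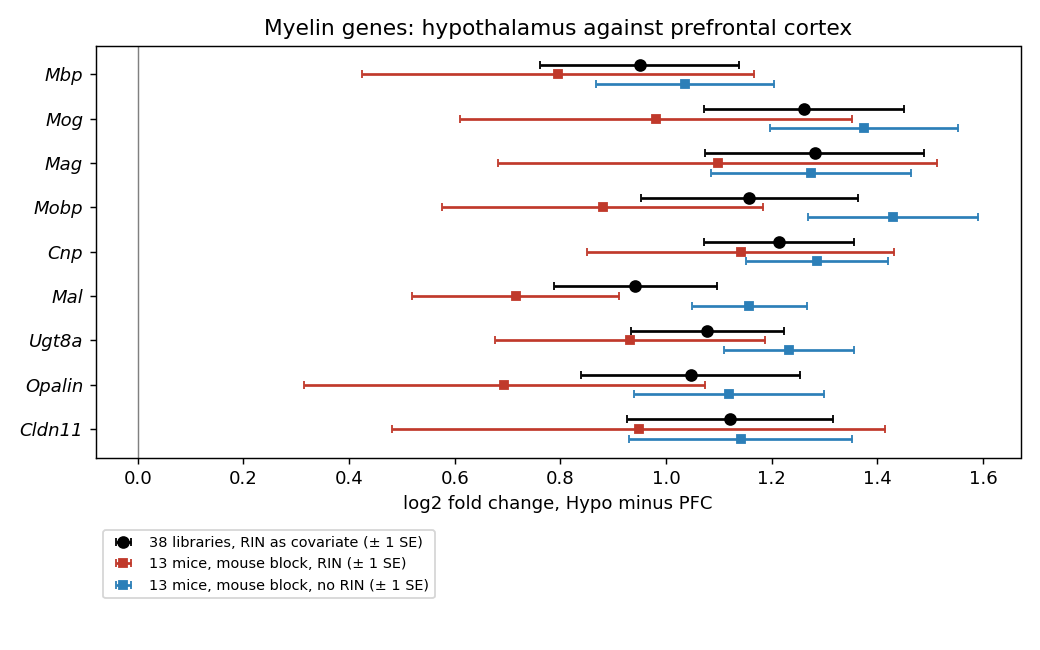
Hypo minus PFC (log2 fold change ± 1 SE) for each myelin gene in 3 fits: all 38 libraries with RIN (black), the 13 mice with both tissues and a block per mouse with RIN (red), and the same without RIN (blue). All points lie right of 0, and the red bars are the widest.

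Other genes of the myelin programme were counted from fixed lists in the same fit. Of the other myelin proteins 13 of 13 tested were called higher in the Hypo, with a median difference of 0.89 (log2), among them the tetraspanins Cd81 (0.88), Cd9 (0.89), and Tspan2 (1.02) and the junctional adhesion molecule Jam3 (0.67). Further oligodendrocyte markers were called higher in 12 of 12, with a median of 1.02, and with Gpr37, a receptor of maturing oligodendrocytes, at 1.19, the alarmin Il33 at 1.11, Plekhh1 at 1.32, and the iron carrier transferrin, Trf, at 1.33. Of the transcription factors of the lineage 9 of 10 were called higher, with Nkx2-2 at 1.53, St18 at 2.12, Myrf at 1.24, and Nkx6-2 at 1.88, and Sox8, named after its value was seen, was the one not called. A gene entered this fit if it passed the low-count filter in either tissue, and 4 of these factors, Nkx2-2, Nkx6-2, St18, and Zfp488, passed only in the Hypo, so that their being higher there was fixed in part by the filter. Of the 6 that passed in both tissues 5 were called higher, with a median of 0.53 and 1 at 2-fold or more. Of the other myelin proteins 1 and of the further markers 2 passed only in the Hypo, and the 12 and 10 that passed in both were all called higher, with medians of 0.89 and 1.02. Of all genes 35.6% were called higher, the 9 genes had a median of 1.12, and differences between the lists were not tested.

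Enzymes of lipid synthesis and metabolism were mixed. Of 12 tested, 8 were called higher, with the ceramide synthase Cers2 at 1.03, the elongases Elovl1 at 0.87 and Elovl7 at 0.72, and the fatty acid hydroxylase Fa2h at 1.28. The 3 called lower, named after their values were seen, were Hmgcs1 of cholesterol synthesis at -0.50, Sgpp2 at -0.64, and Enpp2 at -0.26. Of 11 genes of oligodendrocyte precursors 8 were called higher and 2 lower, with Lhfpl3 at 1.74, the sialidase Neu4 at 0.69, C1ql1 at 1.02, and the kinase Fyn at -0.38, and their median was 0.43.

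Markers of other cells moved with tissue as well, and 32.8% of all genes were called lower in the Hypo. Of 10 general neuronal genes 9 were called lower, and their summed level ran from 5944 to 6914 CPM there against 12014 to 17777 CPM in the PFC. Microglial genes were called lower in 5 of 8, with sums of 263 to 336 CPM in the Hypo and 321 to 502 CPM in the PFC. Endothelial genes were called lower in 6 of 8, with sums of 147 to 194 and 167 to 429 CPM. Astrocyte genes were called higher in 6 of 10 and lower in 1, with sums of 4074 to 5484 CPM in the Hypo and 5299 to 12083 CPM in the PFC. None of these genes was at 0 in any library. Genes of inhibitory neurons were called higher in 5 of 6, with a median of 0.62 (log2). The part of these changes in the difference of the myelin genes was not tested.

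In the PFC the myelin genes varied more between libraries than nearly all other genes. The SD of log2-CPM within groups was 0.37 for Cnp to 0.61 for Mobp, and 91.6% to 99.2% of the 12824 genes kept by the low-count filter in the PFC had a smaller SD, the median being 0.19. In the Hypo the SD was 0.16 for Cnp to 0.30 for Cldn11, and 34.2% to 78.3% of 13964 genes had a smaller one, with a median of 0.20. Without mouse 238 the median SD of the 9 genes in the PFC fell from 0.50 to 0.42, and without mouse 402 it was 0.48.

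The spread was shared. The PFC library of Ube3a2X male 238 was highest of 20 for 7 of the 9 genes, and that of Ube3a2X female 272 for Mal and Ugt8a. The library of Ube3a2X male 402 was lowest for 8 of the 9, and WT male 245 for Mbp. Mice 238 and 402 are both Ube3a2X males, so the extremes of most genes lay in 1 group. Mean deviation from the group over the 9 genes was 1.02 (log2) in mouse 238, with 9 of 9 above the group mean. In the PFC, Pearson's r between 2 members across the 20 libraries, after the group means were taken out, was 0.78 to 0.97 over the 36 pairs (median 0.91), 0.74 to 0.97 without mouse 238, and 0.75 to 0.97 without mouse 402. The points of a pair share their library and its depth, so these values are a description. Beside this, mouse 238 had the highest sum of 8 striatal genes in the PFC, 158 CPM against 138 CPM in the next library, and the part of this in its myelin levels was not tested.

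**Figure D3:**
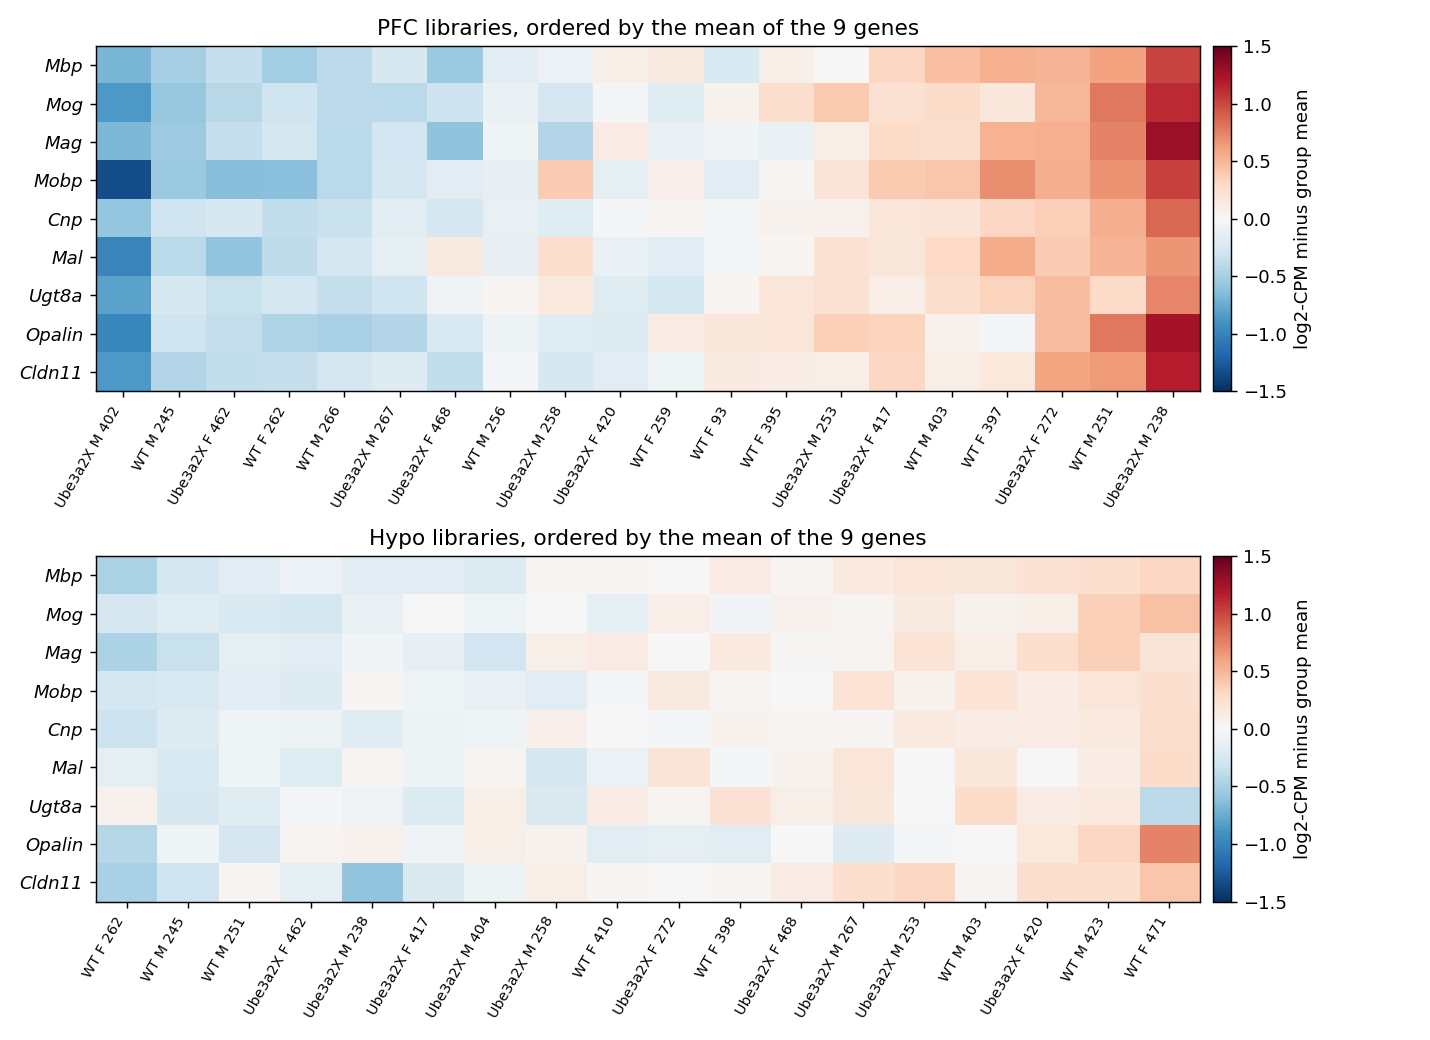
Deviation of each myelin gene (log2-CPM minus the mean of its group) in every library, with libraries ordered from the lowest to the highest mean of the 9 genes, PFC above and Hypo below. Red is above and blue is below the group mean. PFC columns are mostly of one colour from top to bottom, and in the Hypo the column of WT female 471 is red for all but Ugt8a.

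The Hypo showed less of this shared movement. Pairwise r ran from -0.38, between Opalin and Ugt8a, to 0.96, with a median of 0.65, and without mouse 471 the lowest value was 0.06. In the WT females Opalin was 27.5 CPM in mouse 471 and 12.4, 14.4, and 14.6 CPM in the other 3 mice. Ugt8a in the same mice was 45.0 CPM in mouse 471 and 63.2, 63.4, and 68.2 CPM in the others. Mouse 471 thus had the highest Opalin and the lowest Ugt8a of the 18 Hypo libraries. It was also the highest for Mog at 70.0 CPM against 43.9 to 49.5 CPM in its group, and for Cldn11 at 111 CPM against 60.9 to 84.5 CPM. The same library had the lowest sum of precursor genes in the Hypo, 448 CPM, the highest sum of hypothalamic genes, 2164 CPM against 939 CPM in the next, and the pituitary and untranslated values given above. Its sums were also the lowest of the Hypo for general neuronal (5944 CPM), excitatory cortical (281 CPM), astrocyte (4074 CPM), thalamic (374 CPM), and choroid plexus genes (40.2 CPM). They were the highest for striatal (276 CPM against 182 CPM in the next) and microglial genes (336 CPM against 330 CPM). Whether these go with its myelin levels was not tested.

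**Figure D4:**
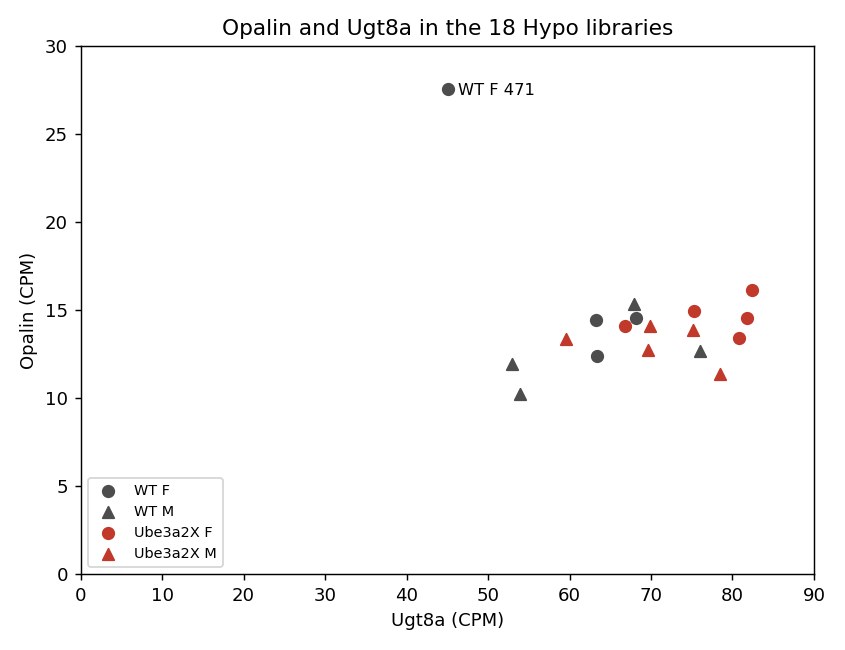
Opalin against Ugt8a (both CPM, linear axes from 0) in the 18 Hypo libraries, circles for females and triangles for males, grey for WT and red for Ube3a2X. WT female 471 lies alone at 27.5 CPM of Opalin and 45.0 CPM of Ugt8a, and the other libraries lie between 10.2 and 16.2 CPM of Opalin.

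The genes outside the 9 whose levels followed them most closely were named by Pearson's r with the mean deviation of the 9 genes. In the PFC, over 20 libraries and 12815 genes, these were Trf (r = 0.98), the membrane protein Tmem88b (0.98), Gpr37 (0.97), Galnt6 (0.96), and Plekhh1 (0.95). In the Hypo, over 18 libraries and 13955 genes, they were the sphingosine phosphate receptor S1pr5 (0.95), Pmepa1 (0.94), Trf (0.94), the gap junction protein Gjb1 (0.93), and Cdc42ep2 (0.93). Trf was in both sets. Without the 2 libraries farthest from the median, 238 and 402 in the PFC and 262 and 471 in the Hypo, r stayed between 0.90 and 0.97 for these genes.

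None of the 9 genes was called for genotype. In the PFC 0 of 9 were called by edgeR against 0.0183% of all 10900 genes, and 1 was under 0.05 before adjustment, where 7.90% of all genes were. The 9 fitted differences, Ube3a2X minus WT averaged over the sexes, were 0.08 for Mag to 0.35 for Mog (log2), with a median of 0.17 against 0.01 over all genes, and 55.7% of all genes were above 0. In the WT females Mog had 14.2, 15.3, 17.98, 19.9, and 20.7 CPM, and in the Ube3a2X females 14.8, 16.2, 19.7, 23.3, and 28.2 CPM. The WT males had 9.87, 11.1, 13.7, 17.9, and 25.5 CPM of Mog, and the Ube3a2X males 9.27, 12.7, 14.1, 21.99, and 36.7 CPM. The genotypes overlapped in both sexes, the lowest and the highest male both being Ube3a2X, and the difference was 0.35 ± 0.14 (log2, SE; edgeR unadjusted p = 0.0192, adjusted p = 0.506). DESeq2 and limma-voom called 0 of 9 too, with 2 and 1 of 9 under 0.05 before adjustment.

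The size in the PFC depended on the filter, the covariates, and single libraries, with 0 of 9 called in each case. The share of all genes under 0.05 before adjustment is not given for these fits, so the counts below describe the 9 genes only. With edgeR's own low-count filter, filterByExpr, the median was 0.43 and 6 of 9 were under 0.05 before adjustment, with no filter it was 0.36, and with 1 surrogate variable 0.28. Without WT female 259 it was 0.29 and 6 of 9 were under 0.05 before adjustment. Mouse 238 and mouse 402 moved these values in opposite ways. Without 238 the median difference of the 9 genes in the PFC was 0.09 with Mag at -0.04, and none was under 0.05 before adjustment. Without 402 the median was 0.35 and 7 of the 9 were under 0.05 before adjustment, and 0 were called in either case. The intervals remained wide: for Mobp, the gene of largest spread, the fold was 1.18 (95% interval 0.871 to 1.59).

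In the Hypo the 9 differences were again all above 0, at 0.13 for Cnp to 0.27 for Mobp (log2), with a median of 0.19 against -0.01 over all genes. None was called by edgeR (adjusted p of 0.910 to 0.930), where 0.00843% of all 11869 genes were. Before adjustment 7 of the 9 were under 0.05, as were 5.24% of all genes, and 1.86% of all genes were so and higher. DESeq2 and limma-voom called 0 of 9 as well, with 8 and 7 of 9 under 0.05 before adjustment. Mobp, with the largest difference, had 405, 467, 487, and 564 CPM in WT females and 447, 494, 517, 554, and 578 CPM in Ube3a2X females. It had 350.3, 358, 457, and 478 CPM in WT males and 433, 452, 497, 508, and 557 CPM in Ube3a2X males. The genotypes overlapped in both sexes, and Mobp differed by 0.27 ± 0.08 (log2, SE; edgeR unadjusted p = 0.0056, adjusted p = 0.910).

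These values changed with the surrogate variables, covariates estimated from the data. With RIN as the only covariate 2 of the 9 were under 0.05 before adjustment, the median was 0.09, and Opalin was at -0.06. With no covariate 1 was, and the median was 0.06. With RIN only and without mouse 471, 4 were. The difference between the genotype effects of the tissues was not called for any of the 9 genes by edgeR (adjusted p of 0.782 to 0.974), at -0.29 to 0.07 (log2), where 0% of all genes were called. None of the 9 was under 0.05 before adjustment, where 8.66% of all genes were. With the mouse as a fixed block and RIN, Mal alone was, at -0.45 (log2; edgeR unadjusted p = 0.0311, adjusted p = 0.765). The median of the 9 genes was -0.17, and without the PFC library of mouse 238 it was 0.00 with 5 of 9 above 0. Without the PFC library of mouse 402 it was -0.25, and without Hypo WT male 245 -0.24, with 9 of 9 below 0 in each case.

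**Figure D5:**
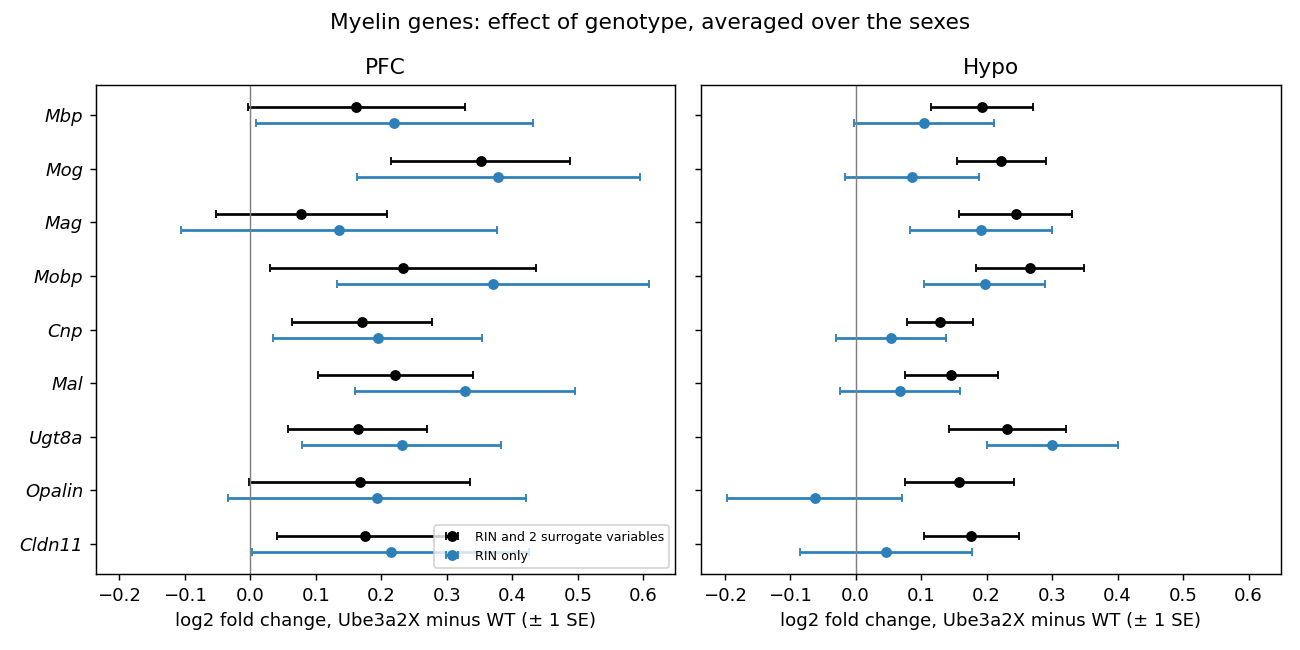
Ube3a2X minus WT (log2 fold change ± 1 SE), averaged over the sexes, for each myelin gene in the PFC (left) and the Hypo (right), with RIN and 2 surrogate variables (black) and with RIN only (blue). All black points lie above 0, none was called at an adjusted p under 0.05, and Opalin in the Hypo lies on the other side of 0 with RIN only.

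The study asked whether the dosage of Ube3a acts differently in the sexes, so the 9 genes were fitted within each sex. It reported many PFC genes with a sex by genotype interaction after FDR correction, and repeated some by qRT-PCR in other mice. In the study, genes up in Ube3a2X males and down in Ube3a2X females were enriched for oligodendrocyte markers, among others. The study used limma-voom, and limma-voom called 0 of all 10900 genes for this interaction here. Why the counts differ was not tested. In PFC males the differences between genotypes were 0.17 to 0.57 (log2), with 4 of 9, Mbp, Mog, Mobp, and Cnp, under 0.05 before adjustment (edgeR adjusted p of 0.193 to 0.554), where 18.3% of all genes were. In PFC females they were -0.17 to 0.24 with a median of 0.08, and 0 of 9 were under 0.05 before adjustment, where 14.6% of all genes were. In females all 9 were above 0 with RIN only (median 0.24), with 1 surrogate variable (0.36), with filterByExpr (0.46, with 3 of 9 under 0.05 before adjustment), and without WT female 259 (0.27, with 2 of 9). None was called by edgeR in either sex, where 0.0275% of all genes were in males and 0.00917% in females. The count in males was 0 of 9 without mouse 238 or WT male 256, 9 of 9 without mouse 402, and 0 of 9 with RIN only, with 1 surrogate variable, with no covariate, or with no filter on low counts. Some quality measures differed by genotype among PFC males. Bases in introns made up 3.1026% to 4.0042% in Ube3a2X libraries and 4.3978% to 5.8473% in WT libraries. Reads on the correct strand made up at least 98.18% in Ube3a2X libraries, except mouse 258 at 92.08%. In WT libraries they made up 92.64% to 95.16%. In PFC females the genotypes overlapped in both measures. The part of these measures in the myelin values was not tested. In the PFC of males, genes of other cells gave positive differences too, where 52.2% of all genes were above 0. They were above 0 for 10 of 10 precursor genes (6 under 0.05 before adjustment), 8 of 8 microglial genes (4), 8 of 8 endothelial genes (3), and 10 of 10 astrocyte genes (3), but for 4 of 10 general neuronal genes (1) and 4 of 6 of excitatory cortical neurons (2), and their part in the myelin values was not tested. The interaction, the difference in males minus that in females, was 0.01 for Ugt8a to 0.67 for Mobp, and 0 of 9 passed before or after adjustment by edgeR (smallest adjusted p = 0.215, for Mbp), where 25.2% of all genes passed before and 0% after. DESeq2 called 0 of 9 for this interaction and in PFC males as well, where it called 778 and 245 of all 10900 genes. Its median depended on the covariates, the filter, and single libraries, being 0.22 here, 0.02 with RIN only, -0.15 with 1 surrogate variable, and -0.09 with filterByExpr. It was 0.11 without mouse 238, 0.45 without mouse 402, with 3 of 9 under 0.05 before adjustment, and -0.05 without WT female 259.

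Mbp shows the range behind these numbers. In the PFC it had 447, 480, 563, 866, and 965 CPM in WT males and 483, 654, 731, 780, and 1564 CPM in Ube3a2X males. In WT females it had 554, 675, 836, 867, and 1170 CPM, and in Ube3a2X females 517, 585, 802, 931, and 1073 CPM. The genotypes overlapped in each sex, and the highest Ube3a2X male lay above all other PFC libraries.

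In Hypo males the genotype differences were 0.12 to 0.34 (log2), with 6 of 9 under 0.05 before adjustment, where 9.19% of all genes were, and 0 of 9 called by edgeR (adjusted p of 0.524 to 0.674), where 0% were. Without Hypo WT male 403 all 9 were under 0.05 before adjustment and 2 were called, where 0.412% of all genes were, without WT male 251 none was under 0.05, and with RIN only none was. In Hypo females they were 0.05 to 0.28, with 2 of 9 before adjustment, where 2.93% of all genes were, and 0 called by edgeR. Their median was 0.16, and it was 0.00 with RIN only, with 4 of 9 below 0, and 0.01 with no covariate. Without WT female 262, 2 of 9 were below 0 and 0 were under 0.05 before adjustment. The interaction in the Hypo was -0.10 to 0.22, with 0 of 9 before or after adjustment by edgeR, where 6.90% and 0% of all genes were. Its median was 0.13, and without Hypo WT male 403 it was 0.20, with 9 of 9 above 0 and 4 under 0.05 before adjustment. Without WT male 245 or the Hypo library of mouse 238 it was 0.04.

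Between the sexes, male minus female averaged over the genotypes, 0 of 9 were called by edgeR in the PFC, at 0.00 to 0.16 (log2), where 0.0917% of all genes were and 8.83% were under 0.05 before adjustment. None of the 9 was under 0.05 there. This sign was not stable, since all 9 were below 0 with 1 surrogate variable (-0.20 to -0.02), with no covariate (-0.23 to -0.06), with no filter on low counts (-0.19 to -0.01), and without mouse 238 (-0.20 to -0.03), and 3 were under 0.05 before adjustment without WT female 259 (median 0.24). In the Hypo 0 of 9 were called by edgeR, where 2.30% of all genes were, and 4, Mog, Mal, Opalin, and Cldn11, were lower in males at an unadjusted p under 0.05, where 9.98% of all genes were lower. Mog had 43.9, 45.9, 49.5, and 70.0 CPM in WT females and 34.3, 36.2, 43.0, and 51.8 CPM in WT males. In Ube3a2X mice it had 42.7, 51.5, 54.0, 54.6, and 56.3 CPM in females and 42.4, 42.5, 43.7, 45.3, and 47.8 CPM in males. The sexes overlapped in both genotypes. Mog was lower in males by 0.24 on the log2 scale (coefficient -0.24 ± 0.07, SE; edgeR adjusted p = 0.0622), DESeq2 called it (adjusted p = 0.0202), where it called 5.58% of all genes, and limma-voom called 0 of 9. Without Hypo WT male 403 edgeR called Mog and Cldn11, where 5.57% of all genes were called. The number of the 9 genes under 0.05 before adjustment was 7 without that library and 2 without Hypo WT male 251.

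In the other lists 0 genes of the myelin and oligodendrocyte groups were called by edgeR for genotype in either tissue. Before adjustment 6 of 13 other myelin proteins, 5 of 10 lipid and metabolism enzymes, and 4 of 12 further oligodendrocyte markers were under 0.05 and higher in the Hypo of Ube3a2X mice, with median differences of 0.16, 0.12, and 0.17 (log2), where 1.86% of all genes were. In the PFC 1 of 12, 0 of 12, and 1 of 10 were, where 3.64% of all genes were. Of the 10 transcription factors 1 was under 0.05 and higher in the Hypo and 1 lower, with a median of 0.02. Of the precursor genes 2 of 8 were under 0.05 and higher in the Hypo, with a median of 0.01. In the Hypo, 5 of 6 genes of inhibitory neurons were lower in Ube3a2X mice at an unadjusted p under 0.05, with a median of -0.26, where 3.38% of all genes were lower, and the part of this in the myelin values was not tested.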

How the data were processed

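The deposited table holds the count of reads per gene, without normalization; the authors aligned stranded paired-end reads to GRCm38 with STAR and counted them on Gencode v24 genes with featureCounts. In the deposited quality table, RIN and AT dropout are a score, base and strand shares a fraction, and evenness and end bias of coverage a ratio. Fractions were converted to percent and aligned reads were not used further. Exon lengths came from GENCODE vM21. In R 4.3.3 with edgeR 4.0.16, a gene under 100 reads in at least 2 libraries of a tissue was dropped from its fits, as were the 15% of lowest variance; the fit between tissues kept a gene that passed the read filter in either tissue, with no variance filter. Quasi-likelihood tests on TMM-scaled counts used sex by genotype groups, RIN, and 2 surrogate variables (sva 3.50.0), or, between tissues, 8 groups and RIN. p-values were adjusted over all genes (Benjamini-Hochberg). CPM in the text are TMM-scaled, and log2-CPM use a prior count of 2. Alternatives used DESeq2 1.42.0, limma 3.58.1, other filters, covariates, a block per mouse, and each library left out. Shares of all genes under 0.05 before adjustment are given for the main fits only. That a mouse number marks 1 animal was taken from the labels. Over 13 pairs the correlation of deviations between the tissues was -0.46 to 0.35 (median -0.04), which gives the pairing no support of its own. Motifs were searched in Python 3.11.15. Self-tests on simulated counts were run. Named genes are the 9 members, Ube3a, at most 4 called genes of smallest p per list, and the 5 most alike per tissue; others were named after their values were seen, or for overlapping a member (Gm38642, Dnajc7). The members and lists were chosen with earlier results of these data known. Some results on genes of the lists are not reported here.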

Additional observations from a re-analysis of the deposited data

Results flagged for a closer look

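Of the 72 combinations of gene and group tested, each with 4 or 5 libraries, 4 had a library that lay far from the others by Dixon's test. Chance flags about 1 in 20, so this count is near what chance gives. The test was run on CPM and not on log2-CPM, the scale of the spreads above, on which the flags were not tested. In PFC Ube3a2X males, mouse 238 had 1564 CPM of Mbp (next 780 CPM) and 115 CPM of Mag (next 49.8 CPM). In PFC WT females, mouse 397 had 80.4 CPM of Mag (next 53.5 CPM). In Hypo WT females, mouse 471 had 27.5 CPM of Opalin (next 14.6 CPM).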

How the results depend on the processing

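The higher level in the Hypo kept its direction for all 9 genes under all alternatives, and all 9 were called in each of the fits that left out 1 library. With the replicate block (mouse fixed, 13 mice, with RIN) 4 were called, and with the same block and no RIN 9 were. This block uses fewer samples, and RIN was higher in the Hypo in each mouse. It changed no other call: the difference of the genotype effects between tissues had 0 calls with it, and 1 gene, Mal, under 0.05 before adjustment where 0 were without it. The median SD in the PFC was 0.42 without mouse 238, and leaving out 1 library gave 0.42 to 0.52 there and 0.16 to 0.23 in the Hypo.

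For genotype in the Hypo, the number of genes under 0.05 before adjustment was 2 with RIN only, 1 without covariates, 4 with RIN only and without mouse 471 (chosen after seeing the data), and 3 to 8 when 1 library was left out. Without Hypo WT male 403, calls rose from 0 to 2 for genotype in Hypo males, where 0.412% of all genes were called. They rose to 2 for sex in the Hypo, where 5.57% were. DESeq2 gave 1 call for sex in the Hypo, where 5.58% were. Calls were at most 1 for the PFC interaction (without WT female 93), and 1 for sex in the Hypo without WT male 423 or Ube3a2X female 462. The share of all genes called is not given for these last fits, so their single calls cannot be weighed. The cause was not tested. Among the single-gene values followed under every alternative the sign of 5 turned, in 7 fits in all, none of them called. The medians of the 9 genes turned for sex in the PFC, genotype in PFC females, the PFC interaction, and the difference of the genotype effects between tissues. For genotype in the PFC, Mag was -0.0366 without mouse 238 and at most 0.235 when 1 library was left out, and with RIN only and without mouse 238 Mag was -0.115, Opalin -0.0316, and Cldn11 -0.0019, while the interaction of Mobp was -0.0625. For genotype in the Hypo, Opalin was -0.0622 with RIN only and -0.0870 without covariates.

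Groups held 4 or 5 mice, and no member had fewer reads than 152 (PFC libraries) or 687 (Hypo libraries). What sets the precision was not tested. Each mouse gave a single library per tissue, so spread between mice cannot be told apart from dissection or preparation.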
